A study of Mus musculus with 37 samples.

Results

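This report describes 37 genes that are used as markers of macrophages and other leukocytes, followed through 37 RNA-seq libraries of cultured mouse bone marrow (BM) and osteosarcoma cells. The members were chosen by symbol, as the rows of the deposited table whose Ensembl gene ID maps to a fixed list, and all 37 were found among the 51123 genes of the table. They fall into 9 roles. Among these are 6 pan-leukocyte genes, 5 adaptors and Fc receptor genes, 3 integrin and adhesion genes, and the lineage factor Spi1 with the growth factor receptor Csf1r. Further roles are 9 C-type lectins and scavenger receptors, 3 subunits of complement C1q and 3 subunits of the NADPH oxidase. The last are 3 lysosomal and secreted proteins, and 3 chemokine and chemokine receptor genes.

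Macrophages arise from myeloid progenitors under the transcription factor PU.1, the product of Spi1, and they depend on the cytokines CSF1 and IL-34, which both act through the receptor encoded by Csf1r. They adhere to culture plastic, so flushed marrow that is plated to grow stromal cells commonly holds macrophages in the first passages. Typical products are lysozyme (Lyz2), the 3 chains of C1q, the signalling adaptors DAP12 (Tyrobp) and the Fc receptor gamma chain (Fcer1g), and surface receptors that recognise microbes and dying cells.

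The study asked how early marrow cells change in mice that develop osteosarcoma after Osx1-Cre, which is active in bone-forming progenitors, deleted Trp53 alone (SKO) or Wwox and Trp53 together (DKO) and switched on a Rosa26-LSL-tdTomato reporter. Marrow was flushed from femurs and tibiae, red cells were lysed, and the cells were grown in MEM-Alpha with serum. For 16 samples the methods state that RNA was taken after 3 passages, when tdTomato-positive cells dominated, and no passage number is stated for the others. By flow cytometry of fresh marrow from tumor-bearing DKO mice, the paper reports many cells with the hematopoietic marker CD45 and few mesenchymal cells. It reports the same for fresh tumor cells and relates this to osterix expression in blood lineages. In culture, by its account, the hematopoietic population shrank and the tdTomato-positive mesenchymal population grew. The libraries fall into 2 sets that were fitted separately here.

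Set 1 holds 4 libraries of control BM, 6 of marrow from young DKO mice without tumors (DKO yBM, replicates 1 to 3 at 1.5 months and 4 to 6 at 4 months), 3 of marrow from DKO mice that bore tumors (DKO BMT) and 3 of DKO tumor cells. Set 2 holds 7 groups of 3 libraries, namely control BM and, for SKO as well as for DKO, yBM, BMT and tumor, and the labels give no ages for it. The labels call the controls WT, the series design text calls them Cre negative, and legends of the paper on other assays use Cre-positive WT marrow as the control. A legend of the paper with the library numbers of set 1 describes the DKO BMT cells as paired with the tumors, and the labels do not otherwise say which libraries come from separate mice, so p-values measure only the spread between these libraries. The 3 control libraries of set 2 were matched to their group without a replicate number.

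Values are TPM, the transcript abundance per gene scaled to a fixed total, and corrected for transcript length, so levels may be compared between genes but the depth behind them is unknown. Over the 37 libraries, 11001 to 13249 genes reached 1 TPM, mitochondrial transcripts took 5.32% to 32.5% of the TPM, and Actb ranged from 2730 to 21170 TPM. All 37 libraries expressed the labelled mesenchymal lineage, with Col1a1, a chain of type I collagen, at 274 to 14533 TPM and 12 to 16 of 16 mesenchymal and osteoblast genes at 1 TPM or more. Wwox was at 50% or more of the control mean in 7 libraries of set 1 labelled DKO (yBM 2 to 6, BMT 1 and tumor 1) and in the 3 libraries of set 2 labelled DKO tumor, and Trp53 was so in the libraries labelled DKO BMT 2 and 3 of set 1. Control BM 3 of set 1 was itself under 50% of that control mean, with Wwox at 0.922 TPM against a mean of 2.89 TPM. Wwox was at 0.102 and 0.0857 TPM in the libraries labelled SKO BMT 2 and 3, against 11.8 TPM in SKO BMT 1. All libraries are named by their labels below.

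PU.1 binds purine-rich sites around the core GAGGAA, and it is a well-known regulator of many myeloid genes. The RefSeq table of promoters (GRCm38.p6) held an entry for 27 of the 37 members, and none was used for the other 10, which include Spi1, Csf1r, Tyrobp and C1qa. In the 250 bases before the start, GAGGAA or its reverse complement TTCCTC was present in 17 of the 27 members (63.0%) and in 6986 of 27025 genes of the whole table (25.9%). Counted per window, it was in 19 of 33 windows of members (57.6%) and in 23.3% of all 32851 windows. The count is a description of letters and not of binding. The sequences below are printed 5′ to 3′ on the gene's strand, with the motif in capitals, for the pan-leukocyte gene Ptprc (chr1:138175306-138175555, minus strand), for Pf4 (chr5:90772185-90772434, plus strand) and Mrc1 (chr2:14229164-14229413, plus strand), which differed most between young DKO and control marrow of set 1, and for the most abundant member, Lyz2 (chr10:117282273-117282522, minus strand), whose window does not hold these letters.
Ptprc: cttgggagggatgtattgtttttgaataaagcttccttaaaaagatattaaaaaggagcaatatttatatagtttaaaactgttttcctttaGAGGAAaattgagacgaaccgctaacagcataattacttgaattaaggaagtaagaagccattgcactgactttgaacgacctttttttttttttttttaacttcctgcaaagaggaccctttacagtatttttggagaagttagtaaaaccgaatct
Pf4: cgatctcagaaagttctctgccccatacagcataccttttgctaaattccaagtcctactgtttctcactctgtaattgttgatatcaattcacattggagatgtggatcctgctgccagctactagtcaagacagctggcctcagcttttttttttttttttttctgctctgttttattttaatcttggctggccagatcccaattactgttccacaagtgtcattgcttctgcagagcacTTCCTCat
Mrc1: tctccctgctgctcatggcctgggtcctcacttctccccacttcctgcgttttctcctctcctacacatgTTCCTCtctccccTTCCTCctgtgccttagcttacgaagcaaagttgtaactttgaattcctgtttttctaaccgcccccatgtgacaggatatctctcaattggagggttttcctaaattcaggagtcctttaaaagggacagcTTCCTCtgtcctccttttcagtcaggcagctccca
Lyz2: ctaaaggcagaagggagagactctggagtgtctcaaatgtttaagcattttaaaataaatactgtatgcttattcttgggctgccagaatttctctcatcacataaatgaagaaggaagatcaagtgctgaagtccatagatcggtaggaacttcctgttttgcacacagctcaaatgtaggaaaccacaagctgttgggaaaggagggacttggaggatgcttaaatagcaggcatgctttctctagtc
Mrc1 held the motif 3 times, the first base lying 180, 167 and 35 bases before the start. Pf4 held it once, 8 bases before the start, and Ptprc once, 158 bases before the start of this window's transcript, while another Ptprc window of the table did not hold it. The promoters of Itgam and Clec4e, chosen after their counts were seen, held it 2 times each.

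The summary used first is the mean log2(TPM + 1) over the 37 members in each library. Control BM of set 1 was at 5.38, 5.30, 7.30 and 7.35 (mean 6.33 ± 1.14, SD, n = 4), and 35 to 37 members reached 1 TPM in each. DKO yBM of set 1 was at 7.19, 6.51, 3.45, 5.24, 6.54 and 6.11 (5.84 ± 1.34, SD, n = 6), and DKO BMT at 6.66, 6.83 and 6.11 (6.53 ± 0.37, SD, n = 3). These 3 groups overlapped, and DKO yBM 3 was the lowest library among them.

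The 3 DKO tumor libraries of set 1 were split. DKO tumor 1 was at 5.17 with 35 members at 1 TPM or more, just below the control range, while DKO tumor 2 and 3 were at 0.30 and 0.48 with 2 and 4 members at 1 TPM. Summed over the members, this was 4697 TPM in DKO tumor 1 against 15.0 and 29.4 TPM in DKO tumor 2 and 3, where 12 and 4 members were listed at 0. Wwox and Trp53 moved with this split, at 2.92 and 11.3 TPM in DKO tumor 1 against Wwox of 0.0546 and 0.19 TPM and Trp53 of 2.09 and 2.70 TPM in the remaining pair, and their part in the split was not tested.

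In set 2 the split ran between control and knockout. Control BM was at 7.78, 7.69 and 7.94 (7.80 ± 0.13, SD, n = 3), with the members taking 2.63% to 3.23% of the TPM of the library. In 16 of the 18 knockout libraries the mean was 0.243 to 0.656, with 2 to 8 members at 1 TPM, 5 to 21 members listed at 0 and 0.00108% to 0.0122% of the TPM. The remaining 2 knockout libraries were SKO BMT 2 at 4.47 and DKO BMT 2 at 3.85, with 34 and 35 members at 1 TPM and 0.357% and 0.156% of the TPM. The difference between the sets in the groups of the same name, such as DKO yBM at 3.45 to 7.19 in set 1 and 0.37 to 0.44 in set 2, was not tested. In bulk cultures, fewer leukocytes and less RNA of these genes per cell cannot be told apart.

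**Figure D1:**
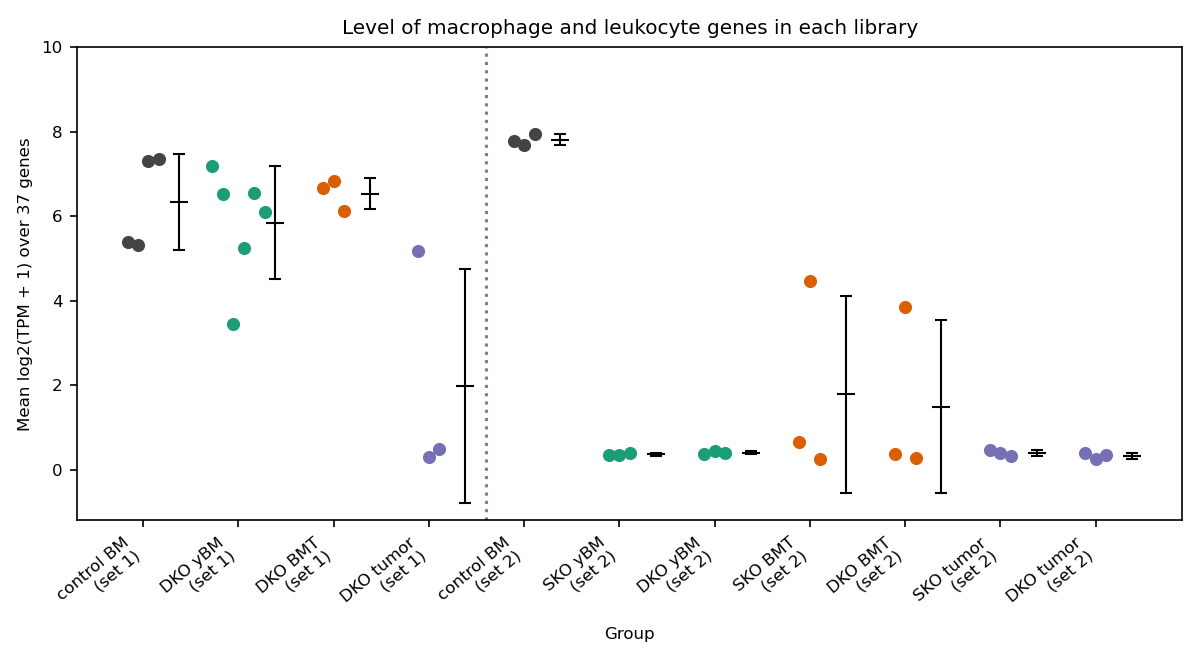
Mean log2(TPM + 1) over the 37 macrophage and leukocyte genes on the y axis, for the groups of set 1 and set 2 on the x axis, with a point for each library and black marks for the mean ± SD of the group. The libraries split into a high and a low level in the set 1 tumor group and in both BMT groups of set 2, while the control libraries lie between 5.30 and 7.94.

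The same order held gene by gene for most members, with Fcer1g, Cd14 and Pf4 as exceptions. In the low libraries of set 2, Fcer1g reached 97.0 TPM and Cd14 13.6 TPM, against 50.5 and 9.27 TPM in DKO BMT 2. Pf4 reached 1.97 TPM there, against 0.603 TPM in SKO BMT 2 and 1.23 TPM in DKO BMT 2. Of the 37 members, 23 stayed under 1 TPM in each of the 16 low knockout libraries of set 2, and 14 reached it in at least 1 of them. Cd14, the co-receptor for bacterial lipopolysaccharide, was the only member at 1 TPM or more in all 37 libraries, and it was at 2.06 to 13.6 TPM (median 4.82) in those 16. The 4 others that reached 1 TPM in at least 8 of the 16 were the adaptor gene Fyb in 10 (up to 6.89 TPM), Lyz2 in 10 (up to 5.80 TPM), Fcer1g in 8 and the lysosomal glycoprotein gene Cd68 in 8 (up to 2.86 TPM). Fcer1g was at 97.0 TPM in SKO BMT 1, where its partner adaptor Tyrobp was at 0.187 TPM. Fcer1g is also expressed by basophils and mast cells. The summed level of 7 mast cell and basophil genes in that library was 8.91 TPM, and over all 37 libraries this sum ran from 0 to 141 TPM. The part of such cells in the Fcer1g value was not tested.

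**Figure D2:**
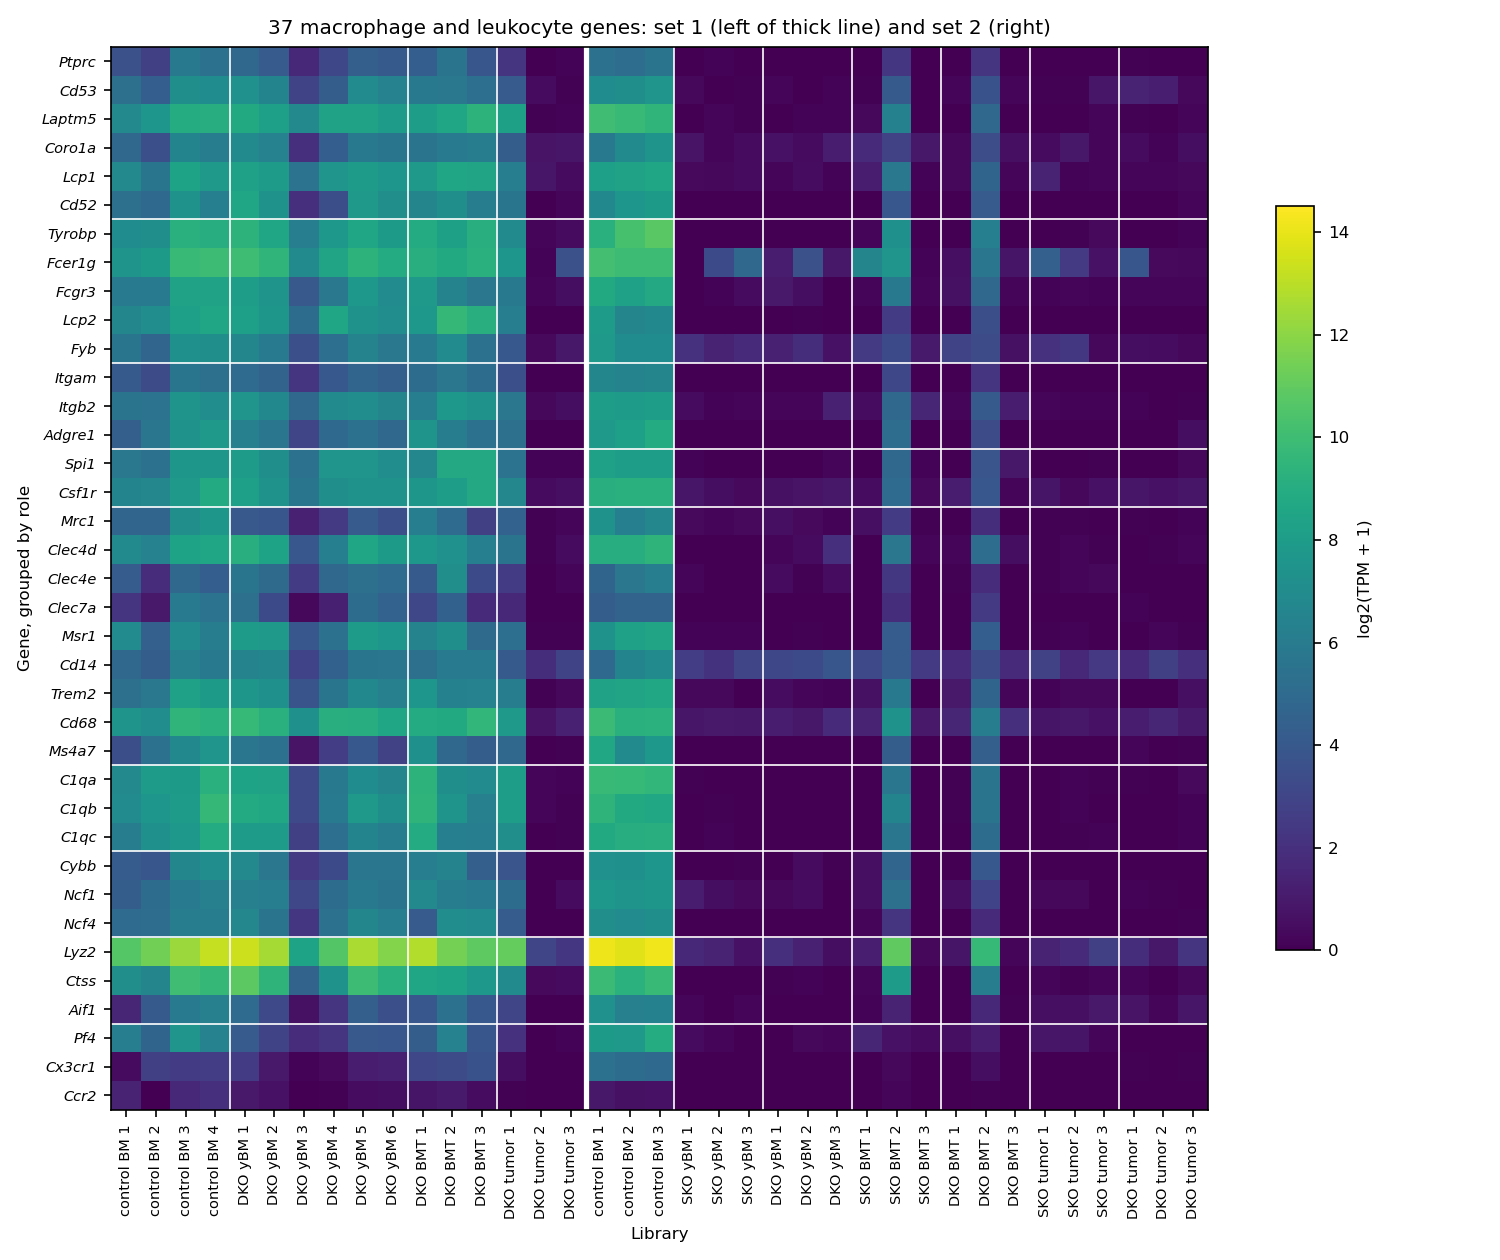
Level of each of the 37 members (rows, grouped by role) in each of the 37 libraries (columns, by set and group), as log2(TPM + 1) on the colour scale. DKO tumor 2 and 3 of set 1 and 16 of the 18 knockout libraries of set 2 are dark, near 0, in nearly all rows, and Cd14 keeps a value of at least 2.06 TPM throughout.

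Of the pan-leukocyte genes, Ptprc encodes CD45, the phosphatase on the surface of nucleated blood cells. Ptprc was at 10.9, 5.75, 57.2 and 43.8 TPM in control BM of set 1, at 29.2, 17.1, 2.10, 7.82, 19.8 and 15.97 TPM in DKO yBM 1 to 6 and at 19.5, 47.2 and 13.8 TPM in DKO BMT. In the tumor libraries it was at 3.59, 0.00861 and 0.0941 TPM, all below the lowest control library. In set 2 it was at 41.8, 35.4 and 46.7 TPM in control BM, at 3.83 TPM in SKO BMT 2 and 3.57 TPM in DKO BMT 2, and at 0 to 0.112 TPM in the other 16 knockout libraries, so knockout and control libraries did not overlap.

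The other pan-leukocyte members are the tetraspanin gene Cd53, the lysosomal protein gene Laptm5, the actin regulators Coro1a and Lcp1, and Cd52, a small surface glycoprotein. Laptm5 was the highest of them in set 2 control BM, at 728 to 1056 TPM, and it did not exceed 0.251 TPM in the 16 low libraries. Cd52 was listed at 0 in 15 of these 16. Coro1a, Lcp1 and Cd53 reached up to 2.32, 1.77 and 1.77 TPM there.

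Spi1 was at 55.2, 43.4, 205 and 201 TPM in control BM of set 1, at 254, 151, 41.7, 191, 185 and 138 TPM in DKO yBM 1 to 6, at 106, 428 and 435 TPM in DKO BMT and at 45.6, 0.123 and 0.121 TPM in the tumor libraries. Csf1r was at 93.9, 103, 231 and 472 TPM in control BM, at 291, 175, 49.7, 146, 174 and 174 TPM in DKO yBM, at 206, 276 and 438 TPM in DKO BMT and at 106, 0.358 and 0.533 TPM in the tumor libraries. For both genes DKO tumor 1 was within or near the control range and DKO tumor 2 and 3 were far below it. In set 2, Spi1 was at 319, 264 and 268 TPM and Csf1r at 544, 582 and 599 TPM in control BM, and neither gene passed 1.26 TPM in the 16 low libraries. SKO BMT 2 held 27.5 TPM of Spi1 and 32.4 TPM of Csf1r, and DKO BMT 2 held 13.0 and 14.4 TPM.

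Tyrobp encodes DAP12, the adaptor that carries the signal of TREM2 and other myeloid receptors. Its level was 133, 147, 598 and 529.5 TPM in control BM of set 1, 660.2, 378, 71.5, 211, 379.7 and 242 TPM in DKO yBM, 477, 305 and 573 TPM in DKO BMT and 122, 0.210 and 0.336 TPM in the tumor libraries. In set 2 it was 588, 1222 and 1792 TPM in control BM, 154 TPM in SKO BMT 2 and 75.7 TPM in DKO BMT 2. It was listed at 0 in 12 of the 16 low libraries and was at most 0.289 TPM in the rest. Lcp2, the scaffold SLP-76, and Fcgr3, a low-affinity IgG receptor, were likewise at most 0.0580 and 0.975 TPM in the 16.

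Adgre1 encodes F4/80, the classical marker of mouse macrophages. In set 1 it was at 20.2, 49.9, 170.3 and 216 TPM in control BM, at 78.2, 51.5, 7.04, 29.8, 42.0 and 29.2 TPM in DKO yBM, at 184, 67.7 and 40.9 TPM in DKO BMT and at 40.7, 0.0256 and 0.0126 TPM in the tumor libraries. In set 2 it was at 218, 293 and 483 TPM in control BM, at 34.8 TPM in SKO BMT 2 and 9.24 TPM in DKO BMT 2, and at most 0.454 TPM in the other knockout libraries. The integrin genes Itgam and Itgb2, whose products pair as CD11b and CD18, were at 88.8 to 102 and 243 to 282 TPM in control BM of set 2 and at most 0.0155 and 1.91 TPM in the 16.

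Cd68 was at 179, 138, 713 and 601 TPM in control BM of set 1, at 839, 580.1, 154, 544, 516 and 374 TPM in DKO yBM, at 476, 449.6 and 785 TPM in DKO BMT and at 233, 0.703 and 1.47 TPM in the tumor libraries. In control BM of set 2 it was at 958, 579.6 and 601 TPM, against 175 TPM in SKO BMT 2 and 67.5 TPM in DKO BMT 2. Cd14 was at 27.6, 18.5, 78.2 and 56.5 TPM in control BM of set 1, 90.03, 101, 6.64, 21.7, 48.2 and 51.3 TPM in DKO yBM, 40.6, 61.7 and 58.3 TPM in DKO BMT and 16.03, 2.75 and 6.76 TPM in the tumor libraries. In control BM of set 2 Cd14 was at 29.5, 91.7 and 123 TPM, above all 18 knockout libraries, of which SKO BMT 2 was the highest at 17.5 TPM, and DKO BMT 2 was at 9.27 TPM.

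Among the other receptors, Trem2, which senses lipids, was at 40.5 to 308 TPM in control BM of set 1 and 329 to 419 TPM in control BM of set 2. Msr1, a scavenger receptor for modified lipoproteins, was at 21.2 to 129 and 172 to 348 TPM in the same groups. The C-type lectin gene Clec4d was at 84.2 to 361 and 529 to 699.6 TPM, and Clec4e and Clec7a, which recognise microbial glycolipids and beta-glucan, were lower, at 2.60 to 27.9 and 0.971 to 59.4 TPM in set 1. Ms4a7 was at 10.2 to 186 TPM in control BM of set 1 and 0.678 to 50.2 TPM in DKO yBM.

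C1qa was at 111, 255, 237 and 578 TPM in control BM of set 1, at 341, 328, 8.37, 58.3, 133 and 94.9 TPM in DKO yBM, at 657, 150.4 and 127 TPM in DKO BMT and at 276, 0.180 and 0.0839 TPM in the tumor libraries. In set 2 it was at 889, 832 and 781 TPM in control BM, at 51.5 TPM in SKO BMT 2 and 46.1 TPM in DKO BMT 2, and listed at 0 in 10 of the 16 low libraries. The chains assemble into 1 complex, and C1qa was 0.554 to 1.95 times C1qb over the libraries in which both were high enough for a ratio, from SKO BMT 2 at the low end to control BM of set 2 at the high end.

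Lyz2 was the most abundant member in each of the 19 libraries that carried the set. It was at 1605, 2704, 5164 and 9407 TPM in control BM of set 1, at 10672, 5985, 342, 1575, 6455 and 3604 TPM in DKO yBM, at 7278, 2834 and 1924 TPM in DKO BMT and at 2165, 7.26 and 3.86 TPM in the tumor libraries. In control BM of set 2 it was at 17778, 14993 and 18933 TPM and made up 57.1% to 59.0% of the members' summed TPM, against 1981 TPM in SKO BMT 2, 825 TPM in DKO BMT 2 and 0.188 to 5.80 TPM in the 16. The close copy Lyz1 was at most 2.36% of Lyz2, in SKO BMT 2, and at most 0.693% elsewhere among the libraries that carried the members. The lysosomal protease gene Ctss was at 95.3 to 1071 TPM in control BM of set 1, and Aif1, an actin-bundling protein of macrophages, was at 1.89 to 79.1 TPM.

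The NADPH oxidase genes Cybb, Ncf1 and Ncf4 were at 13.6 to 135, 18.3 to 78.0 and 32.5 to 70.9 TPM in control BM of set 1 and at 153 to 194, 182 to 211 and 128 to 149 TPM in control BM of set 2. Ncf4 was listed at 0 in 14 of the 16 low libraries. Of the chemokine receptor genes, Cx3cr1 was at 0.329 to 5.67 TPM in control BM of set 1 and 30.1 to 42.0 TPM in that of set 2. Ccr2, the receptor of inflammatory monocytes, was the weakest member, at no more than 3.02 TPM in any library and at 0 in the 16.

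Young DKO marrow of set 1 was first compared with control BM of the same set. Pf4, the chemokine CXCL4 that is best known from platelets and is also made by some macrophages, was lower, and it was the 1 member called among the 37 tested, against 7.81% of all 14404 genes called in either direction and 6.14% called lower. Pf4 was at 74.0, 24.3, 186 and 86.6 TPM in control BM and at 16.7, 6.78, 2.60, 3.61, 15.3 and 14.04 TPM in DKO yBM 1 to 6, so the groups did not overlap. The log2 fold change, on the log2(TPM + 1) scale used throughout, was −3.04 (SE 0.67, adjusted p = 0.0207 from limma).

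Mrc1, the mannose receptor CD206, followed Pf4. It was at 25.1, 25.9, 142 and 207 TPM in control BM and at 15.3, 13.5, 1.56, 4.52, 17.1 and 10.8 TPM in DKO yBM, again without overlap, but its log2 fold change of −2.84 (SE 0.96) missed the threshold, with an adjusted p of 0.0781 from limma. These were the 2 members whose groups did not overlap, as 11.1% of all genes did in this direction. The median log2 fold change of the 37 was −0.27, beside −0.22 over all genes, and 27 were negative and 10 positive. Both genes are among 8 members that were listed because they had the largest decreases in set 1 tumor cells in earlier results. The call for Pf4 was lost without control BM 4, where no member was called, and leaving out other single libraries gave 1 or 2.

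In the tumor libraries of set 1, Pf4 was at 3.17, 0 and 0.105 TPM and Mrc1 at 22.2, 0.0438 and 0.145 TPM, all below control BM. Mrc1 was at 72.4, 32.8 and 5.69 TPM in DKO BMT, which overlapped with control BM. In set 2, Pf4 was at 238, 219 and 500.1 TPM and Mrc1 at 171, 74.5 and 105 TPM in control BM. SKO BMT 2 held 0.603 TPM of Pf4 and 4.72 TPM of Mrc1, and DKO BMT 2 held 1.23 and 2.70 TPM, so that Pf4 was as low there as in the 16 libraries without the set, in which it reached at most 1.97 TPM.

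Relative to Csf1r, which all these libraries carried at more than 10 TPM, Pf4 was 0.183 to 0.806 in the 4 control libraries and 0.0248 to 0.0885 in the 6 DKO yBM libraries. Mrc1 relative to Csf1r was 0.251 to 0.615 and 0.0310 to 0.0985. By contrast the ratio of Tyrobp to Csf1r was 1.12 to 2.59 in control BM and 1.39 to 2.27 in DKO yBM. Ms4a7, C1qa and Cx3cr1 relative to Csf1r also had lower medians in DKO yBM (0.0605, 0.657 and 0.00617), with ranges overlapping the controls. Their control medians were 0.410, 1.21 and 0.0163. Medians for Lcp2 and Ptprc were lower too, and those for Lyz2, Ctss and Spi1 were higher. For DKO BMT of set 1 the Pf4 ratio spanned 0.0309 to 0.303, and DKO tumor 1 had 0.0299. A low Pf4 ratio was therefore not particular to young marrow. In control BM of set 2 the Pf4 ratio was 0.377 to 0.835, and in the libraries SKO BMT 2 and DKO BMT 2 it was 0.0186 and 0.0852. The Mrc1 ratio was 0.128 to 0.314 in control BM of set 2. It lay within this range in SKO BMT 2 (0.146) and DKO BMT 2 (0.187). These ratios were chosen after the values were seen and are given without a test. Beside them, the 9 megakaryocyte and platelet genes summed to 1.22 to 11.98 TPM over all 37 libraries, and at most 3 of them reached 1 TPM in any. One of these genes, Ppbp, passed the filter in set 2 only with the control libraries, where Pf4 was high too. The part of platelets or their precursors in the Pf4 values was not tested.

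**Figure D3:**
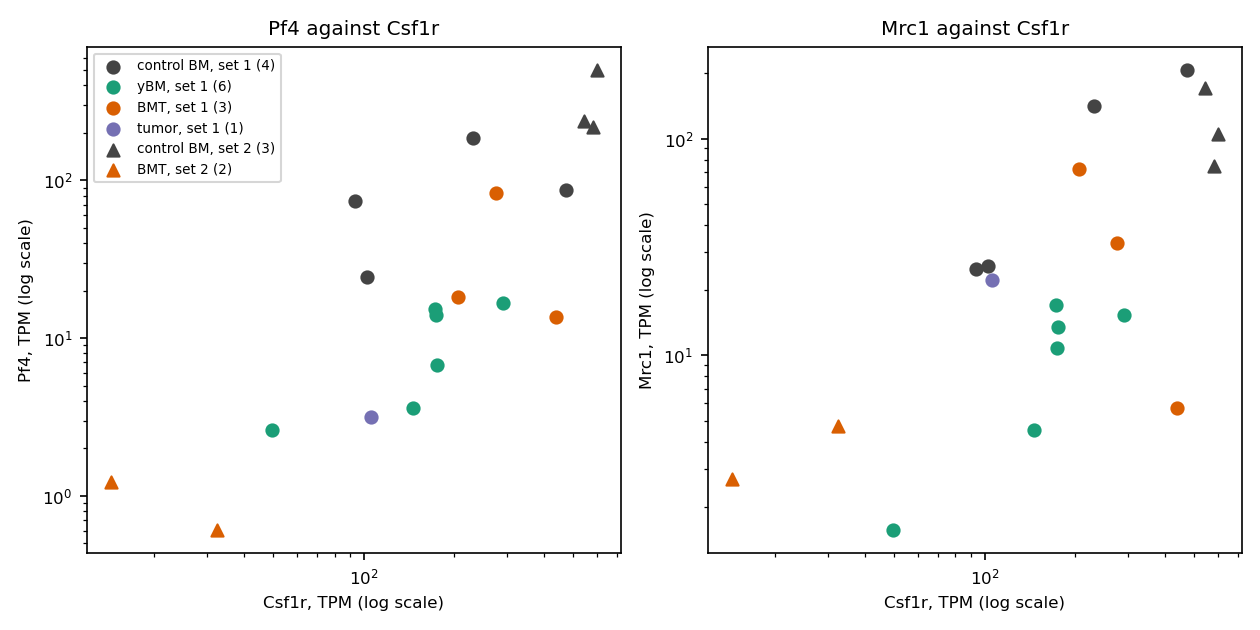
Pf4 and Mrc1 in TPM (y axes, log scale) against Csf1r in TPM (x axes, log scale) in the 19 libraries whose mean log2(TPM + 1) over the members was at least 3, coloured by group. The 6 DKO yBM libraries of set 1, with Pf4 at 2.60 to 16.7 TPM, lie below the control libraries, with Pf4 at 24.3 TPM or more, though DKO yBM 3 has less Csf1r (49.7 TPM) than any control library (93.9 TPM or more).

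Between 4 months and 1.5 months no member was called by limma, and none had an unadjusted p under 0.05, while 0.00694% of all genes were called. The largest difference among the members was that of Ncf4, at 1.26 (SE 1.19). The median of the members was 0.29, beside −0.11 over all genes.

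In marrow of tumor-bearing DKO mice of set 1 the members overlapped with control BM. No member was called by limma against control BM, where 2.35% of all genes were called, and 1 had an unadjusted p under 0.05. That member was Cx3cr1, the fractalkine receptor, at 7.66, 8.82 and 11.6 TPM in DKO BMT against 0.329, 5.67, 4.99 and 5.19 TPM in control BM, with a log2 fold change of 1.26 (SE 0.57, adjusted p = 0.234 from limma). It was the 1 member whose groups did not overlap, as 7.14% of all genes did with the DKO BMT libraries higher. Pf4 was at 18.1, 83.7 and 13.5 TPM in DKO BMT, with a log2 fold change of −1.38 (SE 0.79, adjusted p = 0.354 from limma).

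In DKO tumor cells of set 1 against control BM, 18 of the 37 members fell, all 37 fold changes were negative, and all 37 had an unadjusted p under 0.05, beside 3.39% of all genes called and 2.21% called lower. The median of the members was −4.48, against −0.09 over all genes. The called members included 3 of 6 pan-leukocyte genes, 5 of 5 adaptors and Fc receptors, 3 of 3 integrin and adhesion genes, Spi1 and Csf1r, 3 of 9 lectins and scavenger receptors, Lyz2 and Pf4, and 0 of 3 subunits of both C1q and the NADPH oxidase. Of the 18, 10 lie outside the 8 members that earlier results of this very comparison had named. Comparisons with control BM share its 4 libraries.

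By size, the largest called changes outside those 8 were those of Lyz2 at −6.43 (SE 1.64, adjusted p = 0.0467), Fcer1g at −5.02 (SE 1.23, adjusted p = 0.0414) and Cd68 at −5.02 (SE 1.24, adjusted p = 0.0427), all from limma. The lineage genes changed by −4.70 for Spi1 (adjusted p = 0.0390) and −4.90 for Csf1r (adjusted p = 0.0392), and Ptprc by −3.64 (adjusted p = 0.0392). Adgre1, at −4.50, was the called member nearest the threshold (adjusted p = 0.0483). C1qa, C1qb and C1qc had estimates of −5.08 to −5.26 and did not pass the test.

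Groups did not overlap for 12 of the 37 members, beside 10.6% of all genes lower without overlap, and DKO tumor 1 lay inside the control range for the other 25. Without DKO tumor 1, 31 members were called, and without DKO tumor 2 and 3, an alternative chosen after the data were seen, 0 were called. Leaving out DKO tumor 2 or DKO tumor 3 alone gave 2 and 1, and leaving out control BM 3 or control BM 4 gave 1 in each case. With no filter on low values 1 was called, and with the compared groups alone in the fit 1 was called.

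**Figure D4:**
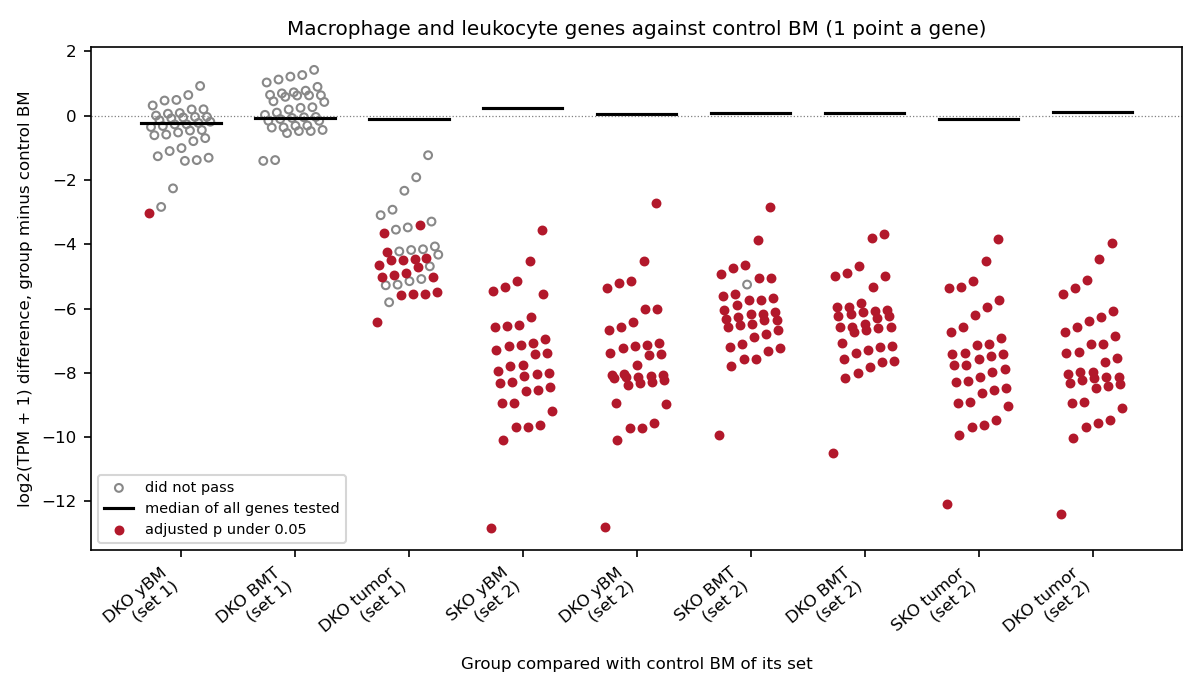
Differences of the members from control BM (y axis) in each knockout group (x axis), on the log2(TPM + 1) scale, with called members filled and a bar at the median of all tested genes. In set 1 the members lie on both sides of 0 in DKO yBM and DKO BMT and are all negative in DKO tumor cells, and in set 2 all are negative against control BM.

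Against marrow of tumor-bearing mice, 3 members were lower in DKO tumor cells of set 1, beside 0.257% of all genes called and 0.201% called lower. Spi1 changed by −6.13 (SE 1.16, adjusted p = 0.0472 from limma), Cx3cr1 by −3.18 (SE 0.61, adjusted p = 0.0473 from limma) and Lcp2, one of the 8, by −6.75 (SE 1.28, adjusted p = 0.0472 from limma). Groups did not overlap for 27 members, beside 7.82% of all genes lower without overlap, and 35 had an unadjusted p under 0.05. With the BMT and tumor libraries of the same number taken as pairs, an alternative chosen after the data were seen, 0 members were called by limma, with adjusted p = 0.0559 for Spi1 and 0.0652 for Cx3cr1. The count was also 0 with a replicate block over all of set 1, with no filter, with median-ratio scaling, with TPM without mitochondrial genes and with the compared groups alone. Without DKO tumor 1 it was 32, and without DKO tumor 2, DKO tumor 3, DKO BMT 2 or DKO BMT 3 it was 0. Against DKO yBM no member was called by limma, beside 0.132% of all genes, although 32 had an unadjusted p under 0.05 and Spi1 was nearest, at −5.19 (SE 1.01, adjusted p = 0.0621 from limma). In that comparison 1 member, Clec4e, did not overlap, beside 2.6% of all genes lower without overlap. The count was 29 without DKO tumor 1 and 22 without DKO yBM 3, the yBM library with the lowest level of the members.

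In set 2, each of the 6 knockout groups was lower than control BM in nearly all members. Of the 36 members that passed the filter of 1 TPM in 3 libraries (Ccr2 did not), 36 were lower in SKO yBM, where 13.5% of all 14458 genes were called and 7.77% were called lower. The same count of 36 was reached in DKO yBM (19.5% called, 10.2% lower), DKO BMT (12% called, 7.79% lower), SKO tumor (11.6% called, 9.57% lower) and DKO tumor (17.2% called, 9.48% lower), and 35 in SKO BMT (13.4% called, 8.36% lower). The filter itself bears on these counts, since 13 members would have passed through the knockout libraries alone and the other 23 tested members passed only with the control libraries, where they are high. With no filter, and so with all 37 members in the fit, the counts were 37 in each comparison except SKO BMT, with 36. All 6 comparisons share the 3 control libraries.

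Lyz2 had log2 fold changes of −12.81 in SKO yBM (adjusted p = 0.00045) and −12.79 in DKO yBM (adjusted p = 0.000437), −9.92 in SKO BMT (adjusted p = 0.00543), −10.49 in DKO BMT (adjusted p = 0.00336), −12.09 in SKO tumor (adjusted p = 0.000789) and −12.41 in DKO tumor (adjusted p = 0.000544), with an SE of 2.20 and p from limma. Laptm5 ranged from −7.56 in SKO BMT to −9.70 in DKO yBM (SE 1.26). C1qa was listed at 0 in all 3 DKO yBM libraries, and elsewhere its estimates ran from −7.80 in SKO BMT to −9.68 in SKO yBM (SE 1.27). The 1 member that missed the threshold in SKO BMT was Fcer1g, at −5.25 (adjusted p = 0.0543 from limma), where SKO BMT 1 and 2 held 97.0 and 186 TPM. Groups did not overlap for all 36 members in each of the 6 comparisons, beside 17.2% of all genes lower without overlap in SKO yBM, 20.2% in DKO yBM, 16.8% in SKO BMT, 13.5% in DKO BMT, 15.5% in SKO tumor and 17.9% in DKO tumor. Of the 36, 13 would have passed the filter through the knockout libraries alone. The rest, Laptm5 and C1qa among them, passed only with the control libraries, where they are high, and this bears on their direction.

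The 2 BMT libraries that kept the members did so at a fraction of the control level. As a share of the mean of control BM in set 2, the members were at a median of 9.69% in SKO BMT 2, from 0.189% for Pf4 to 32.1% for Ctss, and at a median of 6.30% in DKO BMT 2, from 0.385% for Pf4 to 20.9% for Clec7a. Both libraries carry the replicate number 2, and Trp53 was at 4.56 TPM in SKO BMT 2 and 14.03 TPM in DKO BMT 2, beside 0.792 to 4.82 TPM in the 16 low libraries and 35.9 to 74.9 TPM in control BM. Without SKO BMT 2 the 36 tested members were called lower in SKO BMT, and without DKO BMT 2 the 36 were called lower in DKO BMT. With all libraries in the fit, 8.36% and 7.79% of all genes were called lower in these groups. The counts could hardly differ, since the BMT libraries left were near 0 TPM. Only 13 of the 36 would have passed the filter through the knockout libraries alone.

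The comparison of DKO with SKO is meant to ask what the loss of Wwox adds. As limits, Wwox was at 4.26 to 5.23 TPM in the libraries labelled DKO tumor. It was also at 0.102 and 0.0857 TPM in SKO BMT 2 and 3, beside 0.0164, 0.300 and 0.242 TPM in DKO BMT 1 to 3. The labels therefore did not cleanly separate Wwox levels in the contrasts that use BMT or tumor. Between DKO and SKO no member was called by limma in yBM, BMT or tumor, with 0 at an unadjusted p under 0.05 in each, and 0.0207%, 0% and 0% of all genes were called. Tumor against BMT gave 0 called members in SKO and 0 in DKO by limma, each beside 0.083% of all genes, with 1 member at an unadjusted p under 0.05 in each: the integrin gene Itgb2 in SKO (−2.16, SE 0.89, adjusted p = 0.426) and Fyb in DKO (−1.87, SE 0.66, adjusted p = 1, limma). The difference between DKO and SKO in this contrast gave 0 called members and 0 at an unadjusted p under 0.05 by limma, also without the libraries SKO BMT 2 and DKO BMT 2, beside 0% of all genes. Most members were near 0 TPM on both sides of these contrasts, so differences were not detectable there.

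A list of 10 growth factor and cytokine genes held ligands of 3 receptors among the members (Csf1 and Il34 for Csf1r, Ccl2, Ccl7 and Ccl12 for Ccr2, Cx3cl1 for Cx3cr1) and 4 further factors (Csf2, Csf3, Kitl, Spp1). Csf1 was at 57.2 to 918 TPM in all 37 libraries, the chemokines Ccl2 and Ccl7 at 15.8 to 276 and 14.2 to 449 TPM, and Kitl, Spp1 and Cx3cl1 were detected throughout as well. Il34 was at 0.486 to 32.0 TPM, and Csf2 and Csf3 did not exceed 0.431 and 0.197 TPM. In DKO yBM of set 1, Cx3cl1, the ligand of Cx3cr1, was lower than in control BM by limma (−1.98, SE 0.44, adjusted p = 0.0210) and so was Il34 (−1.52, SE 0.42, adjusted p = 0.0408). Thus 2 of 8 tested genes of this list fell there, beside 6.14% of all genes called lower, and Csf1 was not called.

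Ccl12, a CCR2 ligand that mouse macrophages make, was at 1.30 to 22.8 TPM in the 14 libraries of set 1 that carried the members and at 0 in DKO tumor 2 and 3. In set 2 it was at 10.3, 3.01 and 3.03 TPM in control BM and was listed at 0 in 17 knockout libraries and at 0.174 TPM in DKO BMT 2. It passed the filter only through the control libraries, where it was detected, so its calls against control BM are not counted here. Spp1, osteopontin, was called lower in DKO tumor of set 2 (−3.78, SE 1.03, adjusted p = 0.0166 from limma).

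**Figure D5:**
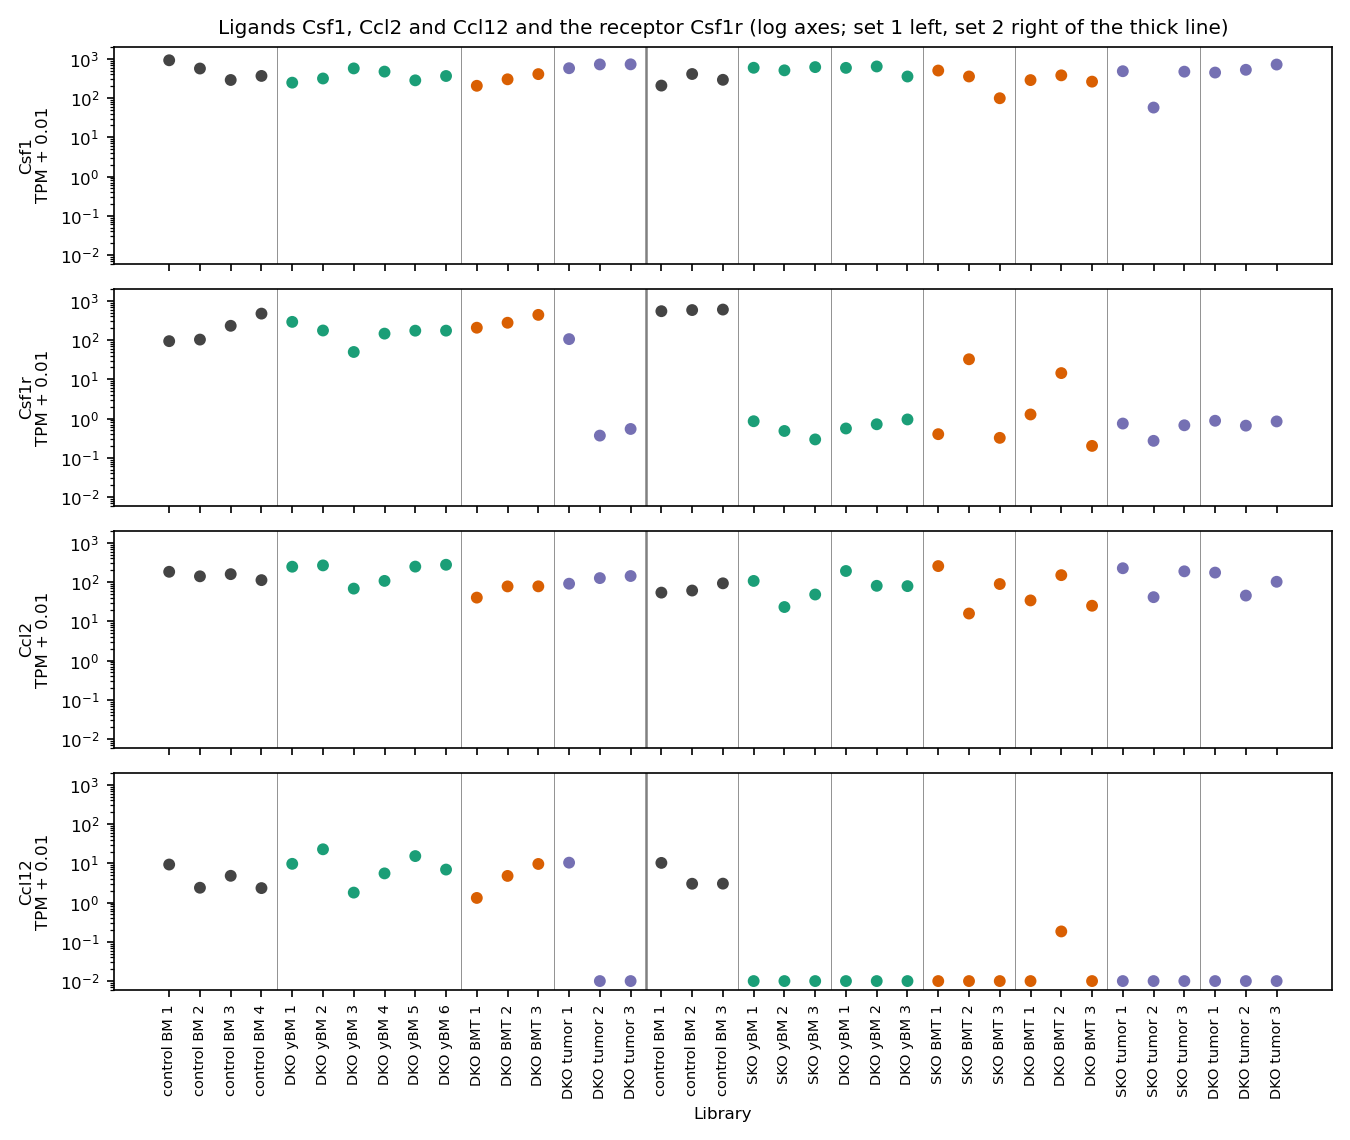
The ligands Csf1, Ccl2 and Ccl12 and the receptor Csf1r in TPM plus 0.01 (y axes, log scale) in each of the 37 libraries (x axis, by set and group). Csf1 stays at 57.2 TPM or more and Ccl2 at 15.8 TPM or more, while Ccl12 drops to 0 in DKO tumor 2 and 3 of set 1 and in 17 of the 18 knockout libraries of set 2.

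Other macrophage genes were followed in a list of 50 that holds none of the members. In DKO tumor cells against control BM of set 1, 12 of 48 tested were lower, beside 2.21% of all genes called lower. First were Inpp5d (−3.82, SE 0.76, adjusted p = 0.0261 from limma) and Csf2rb (−3.69, SE 0.83, adjusted p = 0.0364 from limma). In set 2, limma called 45 to 46 of the 47 tested lower in each knockout group, beside 7.77% to 10.2% of all genes called lower. However, 35 of the 47, Marco and Gpr65 among them, passed the filter only with the control libraries, where they are high, and this bears on their direction. The osteoclast receptor gene Tnfrsf11a, RANK, was lower in DKO tumor than in control BM of set 1 (−2.27, SE 0.53, adjusted p = 0.0390 from limma). Against DKO BMT of set 1, the tumor cells were lower in 3 of 48 other macrophage genes, beside 0.201% of all genes called lower. First were the phosphatase genes Ptpn6 (−5.57, SE 1.00, adjusted p = 0.0413 from limma) and Inpp5d, and Tnfrsf11a was lower too. Against DKO yBM they were lower in 2, Rac2 and Clec12a, beside 0.132% of all genes called. Member counts in these tumor contrasts depended on single libraries, and the counts of these other genes were not checked in that way.

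Lists for other cell types were mostly at low levels. T and NK cell genes (12) summed to 0.264 to 8.69 TPM, erythroid genes (9) to 0.0617 to 15.9 TPM, dendritic cell genes (8) to 0.138 to 57.6 TPM, neutrophil genes (12) to 1.57 to 71.1 TPM and endothelial genes (9) to 6.11 to 83.8 TPM over the 37 libraries. In set 2, many genes of these lists entered the test only through the control libraries, so that a call could hardly go another way: 6 of 9 tested inflammatory genes (with Nlrp3 and Ccl6), 2 of 6 MHC class II genes (H2-Aa and H2-Ab1), 2 of 5 neutrophil genes (S100a8 and Mmp8), 1 of 2 dendritic genes (Itgax), 1 of 3 megakaryocyte genes (Ppbp), 2 of 6 osteoclast genes (Tnfrsf11a and Atp6v0d2) and the 1 tested B cell gene (Vpreb1). Their counts of lower calls are therefore not read as results. In the opposite direction, the osteoblast factor gene Runx2 was higher in SKO yBM (1.85, SE 0.57, adjusted p = 0.0366 from limma) and SKO BMT, and the endothelial gene Egfl7 in DKO yBM. In set 1, Ccl3 and Ccl4 of 11 inflammatory genes were lower in DKO tumor than in control BM, beside 2.21% of all genes called lower. Cxcl12, of 16 mesenchymal genes, was lower in DKO BMT than in control BM (−2.73, SE 0.63, adjusted p = 0.0402 from limma), beside 2.35% of all genes called. The part of these cell types in the members' values was not tested.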

How the data were processed

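RNA-seq of 37 libraries of cultured mouse BM and tumor cells was prepared with a stranded poly-A kit (KAPA) and sequenced on a NextSeq 500. Trimming was by Trim Galore (0.6.1 in the submitters' processing notes, which give mm39 as the build) and read quality was inspected in FastQC. Gene values in TPM, from salmon, are what the authors deposited, while their own tests ran in DESeq2. TPM keeps no depth, so no counting error or floor can be given, and a 0 may be a failed estimate. No 2 libraries were alike beyond a correlation of 0.972.

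From the deposited TPM, the members were matched by Ensembl ID (48246 of 51123 IDs have a symbol in the gene tables used, 2877 have none). Each set was fitted alone by limma 3.58.1 (R 4.3.3), all groups in 1 model without covariates and a prior variance that follows the mean, after a log2(TPM + 1) transform. A gene was tested if 3 or more libraries reached 1 TPM (14404 in set 1, with all 37 members, and 14458 in set 2, with 36), with p adjusted by Benjamini-Hochberg over all of them and called at an adjusted p under 0.05. The fit was tested on simulated data, with shifts added only to well-expressed genes and the same spread in all groups. That setting differs from members near 0 TPM and from groups split into high and low libraries, so it cannot speak for those. The pseudocount shrinks fold changes of low genes.

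The members, the other lists (further macrophage, MHC class II, inflammatory, neutrophil, T and NK, B, dendritic, mast and basophil, erythroid, megakaryocyte, osteoclast, endothelial, mesenchymal, and growth factor and cytokine genes) and the tests were chosen with earlier results of these data known. Named with values in every library were Ptprc, Spi1, Csf1r, Tyrobp, Lyz2, C1qa, Adgre1, Cd14, Cd68, Pf4 and Mrc1, then in each comparison the 3 called members of largest change outside 8 named in earlier results (Tyrobp, Clec4d, Lcp2, Pf4, Fcgr3, Mrc1, Fyb, Cd53), members at 1 TPM in all or in no library, the called genes of smallest p in other lists (2 a list) and all genes of the growth factor and cytokine list. Other genes given with values are examples of their role, picked with the values in view.

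Where groups share replicate numbers, deviations from the group means were correlated over all tested genes. Same-numbered libraries of SKO BMT and DKO BMT correlated at 0.27, 0.25 and 0.38, each above 0.1. This cannot show that they are pairs, since the mice differ in genotype and the labels state no link. Libraries of different numbers were not correlated for comparison, and SKO BMT 2 and DKO BMT 2 both kept the members. A replicate block over all numbered libraries of set 2 gave 0 called members in DKO BMT against SKO BMT, as without it. Set 1 BMT and tumor, which a legend of the paper calls paired, gave 0.07, 0.28 and −0.09, and that equal numbers in the titles mark the pairs was assumed. Their block is given beside its result. Exons of 9 members overlap another gene in GENCODE vM21, on the same strand for Fyb (Gm7666, up to 25.8 TPM) and Itgam (Gm49368, up to 3.30 TPM), so those values may include shared reads. Alternatives were a pseudocount of 0.1, no filter, median-ratio scaling, TPM without mitochondrial genes, the compared groups only, a replicate block, leaving out each library and leaving out libraries whose Wwox or Trp53 goes against the label.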

Additional observations from a re-analysis of the deposited data

Results flagged for a closer look

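Spi1 in DKO yBM of set 1 had a lone low library. DKO yBM 3 was at 41.7 TPM while the other 5 libraries of the group were at 138 to 254 TPM, and on the log2(TPM + 1) scale its gap to the nearest library was 0.659 of the group's whole range, above Dixon's critical value for 6 samples. It was 1 of 24 pairs of group and measure tested (12 measures in control BM and DKO yBM of set 1), of which chance passes about 1 in 20. The same library had the lowest level of the members as a whole among the yBM libraries, at 3.45.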

How the results depend on the processing

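Of 247 alternative fits of the counts of called members, 211 stayed within 1.5 times the value reported and 36 did not. Those 36 were all in set 1, and no named member that was called changed direction. The 211 include fits with 0 called members both before and after. They also include the set 2 comparisons with control BM, which carry the limit of the filter given above. The 211 are therefore no measure of stability for those comparisons. For DKO yBM against control BM (1 called), the count was 2 with the compared groups only, 0 with the replicate block and 0 without libraries whose Wwox goes against the label, and 0 to 2 on leaving out single libraries. For DKO tumor against control BM (18 called) it was 28 with a pseudocount of 0.1, 1 with no filter, 1 with the compared groups only, 0 with the replicate block, 30 and 7 without libraries whose Wwox or Trp53 goes against the label, 0 without DKO tumor 2 and 3 (added after seeing the data) and 1 to 31 on leaving out single libraries. For DKO tumor against DKO BMT (3 called) it was 13 with a pseudocount of 0.1, 26 without libraries whose Wwox goes against the label, 0 with no filter, median-ratio scaling, TPM without mitochondrial genes, the compared groups only, the replicate block, the block of the BMT and tumor pairs alone (added after seeing the data) or without libraries whose Trp53 goes against the label, and 0 to 32 on leaving out single libraries. For DKO tumor against DKO yBM (0 called) it was 9 with a pseudocount of 0.1, 21 without libraries whose Wwox goes against the label and 0 to 29 on leaving out single libraries. The cause was not tested. In set 1 the BMT and tumor libraries are paired by a legend of the paper, and the numbers of the other groups are only names, so the block over all groups is no measure of a weaker effect. It could not be fitted for set 2 comparisons with the unnumbered controls, and DKO tumor of set 2 has no value without libraries whose Wwox goes against the label. Median-ratio scaling moved the share of higher calls over all genes from 21.4% to 62.2% in DKO yBM, 40.7% to 60.1% in DKO BMT and 34.97% to 59.97% in DKO tumor against control BM of set 1, 36.8% to 25% in DKO tumor against DKO yBM, 17.4% to 32.3% in SKO tumor of set 2 and 66.7% to 50% in DKO against SKO yBM, and the median of all genes by between −0.32 and 0.28. The unknown depth limits all values near 0 TPM.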

Other observations

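Osteoclasts form by fusion of macrophage-lineage cells, and 4 libraries of set 1 stood out in 10 osteoclast genes. Their sum was 2444 TPM in DKO yBM 3, 5229 TPM in DKO yBM 4, 2689 TPM in DKO BMT 2 and 8472 TPM in DKO BMT 3, against 133 to 556 TPM in the other 10 set 1 libraries that carried the members. In these 4, Mmp9, a matrix protease of osteoclasts, was at 1024, 2379, 1479.7 and 5109.6 TPM, and Acp5, tartrate-resistant acid phosphatase, was at 552, 944, 497 and 1829 TPM. DKO yBM 3 was also the yBM library with the lowest level of the 37 members.

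B cell genes were highest in 1 library. In control BM 3 of set 1, 7 of 9 B cell genes reached 1 TPM and summed to 37.8 TPM, with Cd79a at 15.5 TPM, while no other library summed to more than 3.94 TPM or had more than 1 such gene at 1 TPM. MHC class II genes were highest in control BM 3 and 4 of set 1, at 282 and 308 TPM over 7 genes, against 23.7 and 32.2 TPM in control BM 1 and 2.

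Some genes listed as macrophage or leukocyte markers were present where the members were nearly absent. Of the further lists, Arhgdib, Gpnmb, Evi2a and Tlr2 reached 1 TPM in 16 of the 16 low knockout libraries of set 2, and Cyba did in 15. Il1rn, the interleukin-1 receptor antagonist, reached 1413 TPM and the basophil protease gene Mcpt8 133 TPM, both in SKO yBM 1.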
